A study of Homo sapiens with 6 samples.

Results

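Of 10 genes for galectins, CD33 and C-type lectins, 9 had enough reads to be tested in HL-60 cells with a hairpin against OSGEP. Of those, 5 were called different from cells with a control hairpin, beside 10.8% of all genes tested. The count was 2 to 5 with 1 library left out and 2 with a replicate block, LGALS3 and CLEC11A being called in every such fit. The galectin genes LGALS3 and LGALS9 and the beta-glucan receptor gene CLEC7A were higher, and LGALS1 and the secreted lectin gene CLEC11A were lower. CD33, LGALS8, CLEC12A and CLEC5A did not pass the test, and CLEC4A had too few reads. The genes were taken by name from the 58302 Ensembl genes of the count tables, namely 4 galectins (LGALS1, LGALS3, LGALS8, LGALS9), CD33 and 5 C-type lectins (CLEC7A, CLEC12A, CLEC5A, CLEC4A, CLEC11A), and all 10 names were matched to an identifier.

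RNA was sequenced from HL-60, an established human acute myeloid leukaemia line with promyelocyte features that grows in suspension. In 3 libraries the cells carried a short hairpin RNA (shRNA) against OSGEP, which encodes the subunit of the KEOPS complex that makes the t6A modification of tRNA, and the labels give their genotype as a knockdown of OSGEP. In the other 3 libraries the cells carried a control shRNA, and the labels call this genotype WT. All 6 libraries are of a single cell line, and the labels state neither how many hairpins against OSGEP were used nor whether replicate libraries were grown separately. The p-values therefore measure only how these libraries vary, and that variation may be technical.

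Galectins bind glycans that carry galactose, are made in the cytosol and leave the cell without a signal peptide. Siglecs such as CD33 bind sialic acid at the ends of glycans and mostly pass inhibitory signals through phosphatases. C-type lectins of myeloid cells recognise microbial sugars or damaged cells, some through the kinase SYK and others through inhibitory motifs, and CD33 and CLEC12A are surface targets of antibody-based treatment in acute myeloid leukaemia.

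The libraries held between 8326982 and 10157091 reads assigned to genes. OSGEP stood at 21.2, 23.1 and 20.9 CPM (counts scaled to a common library size, with TMM factors throughout) in knockdown libraries 1, 2 and 3, against 49.0, 54.4 and 76.9 CPM in control libraries 1, 2 and 3, and was called lower (log2 fold change -1.47, with an SE of 0.21, edgeR adjusted p = 0.000228). Of 14018 genes tested, 10.8% were called at an edgeR adjusted p under 0.05, 5.19% higher and 5.56% lower in the knockdown. The promyelocyte identity of the cells was checked against 13 markers, all of which were detected and 6 of which fell. Those with the largest falls were AZU1 (log2 fold change -2.57), MPO (-1.74) and PRTN3 (-1.47), all genes of primary granule proteins. The other 7, CD33 among them, were not called, and 4 of the 13 had a log2 fold change above 0. The summed level of these 13 markers ranged from 2160 to 2344 CPM in the knockdown libraries and from 4408 to 4590 CPM in the control libraries, and its part in the results on the lectin genes was not tested. In bulk RNA, fewer cells of a type and less RNA per cell cannot be told apart.

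The start regions of the called genes are shown first, because they let the letters around each start be read beside the values. RefSeq (GRCh38.p14) gives a window of 300 bases, from 250 bases before to 50 bases after the start, for 7 of the 10 genes, and 3 of the 5 called genes are among them. In capitals are the letters GGGCGG (the GC box bound by SP1-type factors) and GAGGAA (the core of the PU.1 box), each searched on both strands, so that the reverse complement CCGCCC is a GC box too. The LGALS3 window lies at chr14:55129002-55129301, the LGALS9 window at chr17:27630938-27631237 and the CLEC11A window at chr19:50723114-50723413, each on the plus strand.
LGALS3: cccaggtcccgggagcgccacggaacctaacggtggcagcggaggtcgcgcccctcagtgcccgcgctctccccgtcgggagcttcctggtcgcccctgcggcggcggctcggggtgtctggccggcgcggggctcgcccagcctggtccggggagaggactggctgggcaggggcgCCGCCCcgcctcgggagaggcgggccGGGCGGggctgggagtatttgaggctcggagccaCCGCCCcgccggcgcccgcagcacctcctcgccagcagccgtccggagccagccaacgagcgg
LGALS9: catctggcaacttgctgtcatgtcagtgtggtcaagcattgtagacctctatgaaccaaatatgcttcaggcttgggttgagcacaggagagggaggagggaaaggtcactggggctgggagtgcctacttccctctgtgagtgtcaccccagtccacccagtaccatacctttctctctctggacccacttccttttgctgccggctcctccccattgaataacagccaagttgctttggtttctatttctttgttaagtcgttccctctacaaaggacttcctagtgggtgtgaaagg
CLEC11A: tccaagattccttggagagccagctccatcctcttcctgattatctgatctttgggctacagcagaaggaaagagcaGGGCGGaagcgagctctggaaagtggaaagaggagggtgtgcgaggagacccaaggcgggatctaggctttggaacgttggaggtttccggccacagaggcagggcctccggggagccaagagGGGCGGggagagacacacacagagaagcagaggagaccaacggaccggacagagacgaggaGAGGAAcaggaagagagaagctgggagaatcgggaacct
The LGALS3 window is 78.3% G and C and holds 3 GC boxes, between 73 and 13 bases before the start in their first base. The LGALS9 window is 50.7% G and C and holds neither motif. The CLEC11A window is 58.0% G and C and holds 2 GC boxes and 1 PU.1 core. The CD33 window, at chr19:51224830-51225129, holds 3 PU.1 cores and 1 GC box. Of all 35116 windows of this length, 45.0% hold a GC box and 27.9% a PU.1 core, with a median of 58.7% G and C, so such matches are common and say nothing of binding. Which starts these cells used was not measured.

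Of the 4 galectin genes, 2 rose, 1 fell and 1 was not called. LGALS3, on chromosome 14 at 55124110 to 55145413 of GRCh38, encodes galectin-3, a galectin with a single sugar-binding domain and a tail through which it forms oligomers. It stood at 435, 341 and 401 CPM in knockdown libraries 1, 2 and 3, against 154, 141 and 149 CPM in control libraries 1, 2 and 3. Every knockdown library lay above every control library. The group means were 392 ± 47.4 CPM in the knockdown, against 148 ± 6.45 CPM in the control (SD, n = 3 each), a 2.66-fold rise (log2 fold change 1.41, SE 0.12, edgeR adjusted p = 7.93e-07). LGALS3 kept its call in each of the fits that left out 1 library, at 1.33 to 1.51 on the log2 scale.

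LGALS9 encodes galectin-9, which has a pair of sugar-binding domains and is known as a ligand of the receptor TIM-3, the product of HAVCR2. It lies on chromosome 17 at 27629798 to 27649560. It stood at 151, 130.2 and 125 CPM in knockdown libraries 1, 2 and 3, against 77.2, 99.0 and 105 CPM in control libraries 1, 2 and 3. The groups did not overlap, and the means were 135 ± 13.4 CPM in the knockdown, against 93.8 ± 14.7 CPM in the control (SD, n = 3 each; log2 fold change 0.53 with an SE of 0.15, edgeR adjusted p = 0.0310). The call failed without knockdown 1 (0.45), knockdown 3 (0.60), control 1 (0.40), control 2 (0.57) or control 3 (0.62), and only the fit without knockdown 2 kept it. The near-identical copies LGALS9B and LGALS9C had at most 5 counts in any library, and how reads shared between the copies were counted is not given. A further protein-coding gene annotated on the same strand overlaps LGALS9 and had 0 counts in every library. HAVCR2 was at 3.76, 9.52 and 4.15 CPM in the knockdown, against 0.206, 2.45 and 1.48 CPM in the control, without overlap but not called (log2 fold change 2.07, SE 0.85, edgeR adjusted p = 0.147).

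LGALS1 encodes galectin-1, a small galectin that pairs with itself, and lies on chromosome 22 at 37675608 to 37679806. It moved the other way, with 171, 168 and 170.3 CPM in knockdown libraries 1, 2 and 3, against 224, 240.5 and 233 CPM in control libraries 1, 2 and 3. The knockdown libraries differed by less than 3 CPM and all lay below the controls. The means were 169.7 ± 1.27 CPM in the knockdown, against 232 ± 8.43 CPM in the control (SD, n = 3 each; log2 fold change -0.45 with an SE of 0.11, edgeR adjusted p = 0.0132). The call failed without knockdown 3 (-0.44), control 2 (-0.43) or control 3 (-0.46).

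LGALS8 encodes galectin-8, which also has a pair of sugar-binding domains and marks damaged endosomes for autophagy. It stood at 98.4, 73.9 and 87.3 CPM in knockdown libraries 1, 2 and 3, against 76.4, 92.8 and 88.7 CPM in control libraries 1, 2 and 3, and the groups overlapped throughout. Its log2 fold change was 0.01 (95% interval -0.32 to 0.34, edgeR adjusted p = 0.983). LGALS8, on chromosome 1 at 236518000 to 236552981, overlaps HEATR1 and 3 antisense transcripts on the other strand, and reads of these genes may not be told apart, since the strand setting of the counting is not given.

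**Figure D1:**
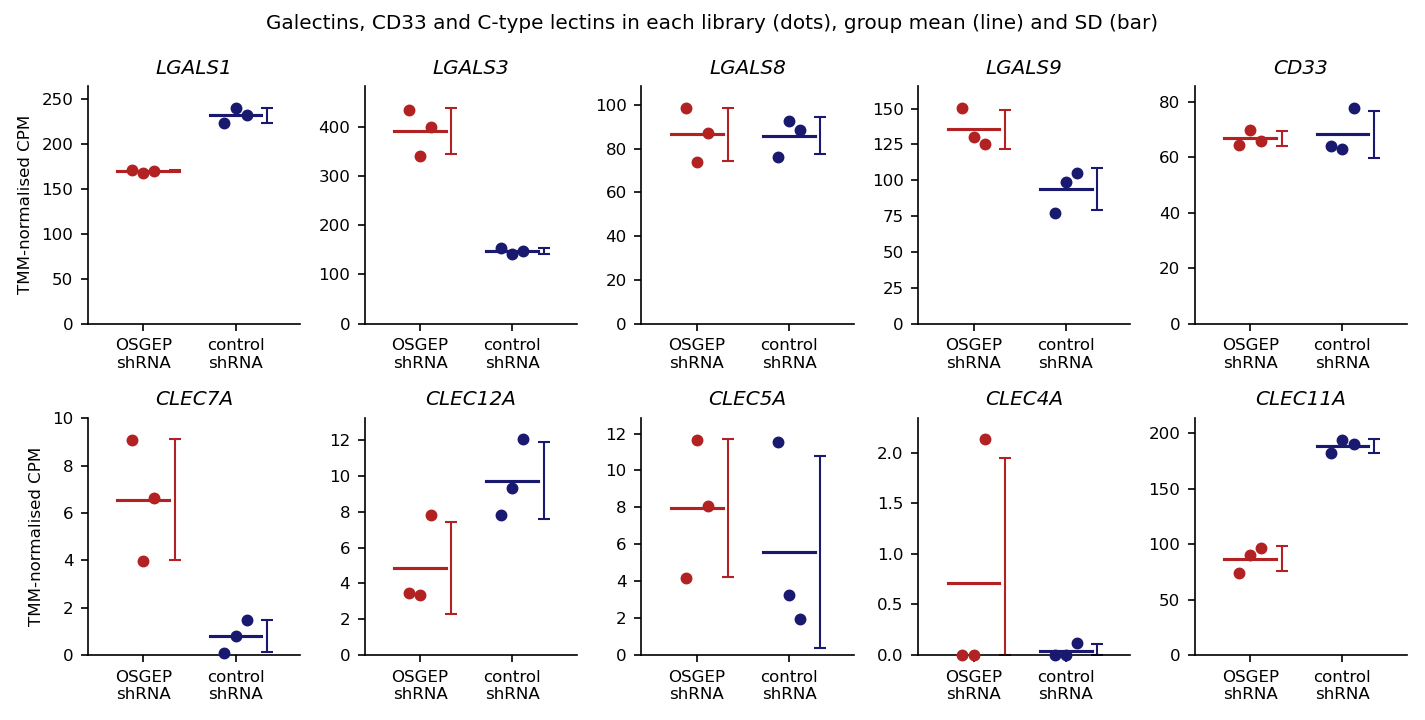
TMM-normalised CPM (vertical axis, from 0, with its own range for each gene) of the 10 genes in the 3 OSGEP shRNA libraries (red) and the 3 control shRNA libraries (dark blue). Dots are libraries 1 to 3, lines are group means and bars are the SD, drawn no lower than 0. LGALS3 sits between 341 and 435 CPM in the knockdown, the controls between 141 and 154 CPM in the control, while the CLEC5A dots of the groups interleave.

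Because LGALS3 and LGALS1 moved in opposite directions, their ratio within a library changed by more than either gene. The counts of LGALS3 were 2.55, 2.03 and 2.36 times those of LGALS1 in knockdown libraries 1, 2 and 3, against 0.687, 0.586 and 0.638 times in control libraries 1, 2 and 3. The mean ratio was 2.31 ± 0.263 in the knockdown and 0.637 ± 0.0507 in the control (SD, n = 3 each), a difference of 1.86 on the log2 scale. Within a library this ratio does not depend on depth or scaling. It is a ratio of reads and not of molecules, since the genes differ in length. LGALS3 supplied 49.95% ± 1.86 of the reads of the 4 galectins in the knockdown and 26.4% ± 2.25 in the control (SD, n = 3 each), and their summed level was 784 ± 70.4 CPM in the knockdown, against 560 ± 25.0 CPM in the control.

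CD33, the Siglec gene among the 10, lies on chromosome 19 at 51225064 to 51243860. It stood at 64.7, 70.1 and 65.8 CPM in knockdown libraries 1, 2 and 3, against 64.0, 62.9 and 78.0 CPM in control libraries 1, 2 and 3. The groups overlapped, with means of 66.9 ± 2.84 CPM in the knockdown, against 68.3 ± 8.44 CPM in the control (SD, n = 3 each). On the log2 scale the difference was -0.03, with a 95% interval of -0.36 to 0.30 (edgeR adjusted p = 0.944), and its sign turned with scaling by library size alone (0.04). Gene counts do not separate the CD33 transcripts with and without the exon of the sialic acid-binding domain.

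CLEC11A had the largest fall of the 10 genes among those that passed the test. It encodes a secreted C-type lectin known as stem cell growth factor and as osteolectin, and lies on chromosome 19 at 50723329 to 50725718. It stood at 74.3, 90.2 and 96.3 CPM in knockdown libraries 1, 2 and 3, against 182, 194 and 190.1 CPM in control libraries 1, 2 and 3. The groups lay far apart, with means of 86.9 ± 11.4 CPM in the knockdown, against 189 ± 6.09 CPM in the control (SD, n = 3 each; log2 fold change -1.12 with an SE of 0.13, edgeR adjusted p = 3.61e-05). The call was kept in each fit that left out 1 library, at -1.18 to -1.02.

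CLEC7A encodes Dectin-1, the receptor for fungal beta-glucans that signals through SYK and CARD9. It had 87, 43 and 56 counts in knockdown libraries 1, 2 and 3, against 1, 8 and 12 counts in control libraries 1, 2 and 3. In CPM this was 9.08, 3.98 and 6.64 in the knockdown and 0.103, 0.818 and 1.48 in the control, so that the lowest knockdown library lay above the highest control. The log2 fold change was 3.04 (SE 0.86, edgeR adjusted p = 0.0330). CLEC7A, on chromosome 12 at 10116777 to 10130258, passed the filter on low counts through its knockdown libraries. Limma-voom did not call CLEC7A (3.44), nor did the fits that left out knockdown 1 (2.72), knockdown 3 (3.05), control 1 (2.51) or control 2 (3.06).

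CLEC12A, on chromosome 12 at 9951316 to 9995694, encodes an inhibitory receptor, also called CLL-1 or MICL, that marks myeloid leukaemia cells. It stood at 3.44, 3.33 and 7.83 CPM in knockdown libraries 1, 2 and 3, against 7.83, 9.31 and 12.1 CPM in control libraries 1, 2 and 3. Knockdown 3 lay just under control 1, and the difference was not called (log2 fold change -1.003, SE 0.48, edgeR adjusted p = 0.230). Without knockdown 3 the value was -1.504, still not called (edgeR adjusted p = 0.0984). CLEC12A overlaps CLEC1B on the other strand, which had 20 counts in the knockdown libraries together and 59 in the controls.

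CLEC5A, on chromosome 7 at 141927357 to 141947007, encodes an activating receptor that signals through the adaptor DAP12, the product of TYROBP. It varied more within the groups than between them, with 4.17, 11.6 and 8.06 CPM in knockdown libraries 1, 2 and 3, against 11.5, 3.27 and 1.97 CPM in control libraries 1, 2 and 3. The log2 fold change was 0.50 (SE 0.62, edgeR adjusted p = 0.713), and without control 1 it was 1.59 (edgeR adjusted p = 0.198). The MGAM gene overlaps CLEC5A on the other strand. CLEC4A, on chromosome 12 at 8123632 to 8138607, encodes DCIR, a receptor with an inhibitory motif. It had 0, 0 and 18 counts in knockdown libraries 1, 2 and 3, against 0, 0 and 1 counts in control libraries 1, 2 and 3. The ratio over the summed libraries was 17.2 (exact 95% interval 2.72 to 718, for counting error only), but all of the knockdown reads came from library 3. CLEC4A was not tested after the filter, and in a fit of every gene with at least 1 read it was not called (edgeR adjusted p = 0.488).

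Counted together, 3 of the 9 tested genes rose and 2 fell, beside 10.8% of all genes tested that were called in either direction. The groups did not overlap for 6 of the 9, beside 28.9% of all genes tested. The share of all genes called was 10.4% with RLE factors, 10.5% with library size alone, 6.22% with every gene of at least 1 read, 14.8% at a mean of at least 5 CPM, 7.65% with the replicate block, 11.0% with DESeq2 and 11.1% with limma-voom. Without knockdown 1, 2 or 3 it was 10.8%, 9.27% or 6.29%, and without control 1, 2 or 3 it was 6.78%, 5.92% or 5.78%. The median log2 fold change was 0.01 for the 9 genes and 0.01 for all genes. These counts describe genes chosen with earlier results of the same libraries known, and 1 of the 3 rises, CLEC7A, passed the filter through the group in which it was high.

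**Figure D2:**
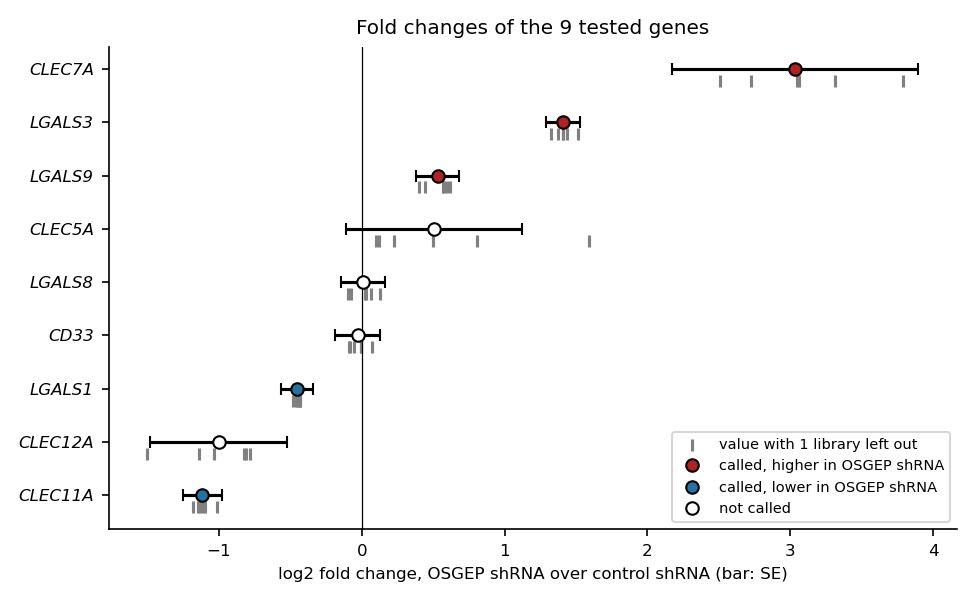
Log2 fold change of OSGEP shRNA over control shRNA (horizontal axis) for the 9 tested genes, with the SE as a bar. Red and blue dots were called higher and lower at an edgeR adjusted p under 0.05, open dots were not called, and grey ticks give the value with each of the 6 libraries left out. The ticks of LGALS3 span 1.33 to 1.51 and those of CLEC5A span 0.10 to 1.59.

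Levels were compared between genes as CPM per kilobase of exon (RPKM), with the union of annotated exons as length. In knockdown libraries LGALS3 and LGALS1 led together, at 164 ± 19.8 and 154 ± 1.16 RPKM (SD, n = 3 each). The LGALS3 range of 142 to 181 RPKM enclosed the LGALS1 range of 153 to 155 RPKM, so their order is not resolved, and with the longest transcript as length LGALS1 stood higher, at 266 RPKM against 226. CLEC11A came next at 59.2 ± 7.74 RPKM, followed by LGALS9, CD33 and LGALS8 at 23.7 ± 2.35, 11.2 ± 0.476 and 8.91 ± 1.26 RPKM. CLEC5A, CLEC7A and CLEC12A overlapped, at 1.93 ± 0.906, 1.57 ± 0.609 and 1.497 ± 0.789 RPKM.

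In control libraries LGALS1 stood highest at 211 ± 7.67 RPKM, followed by CLEC11A at 128 ± 4.14, LGALS3 at 61.6 ± 2.69, LGALS9 at 16.4 ± 2.57, CD33 at 11.4 ± 1.41 and LGALS8 at 8.85 ± 0.881 RPKM (SD, n = 3 each). The ranges of CD33 and LGALS8 in the controls, 10.5 to 13.1 and 7.86 to 9.55 RPKM, lay close together without overlap. With the longest transcript as length they overlapped, at 13.3 to 16.5 and 11.9 to 14.4 RPKM, and in the knockdown the LGALS8 range of 11.5 to 15.3 RPKM enclosed the CD33 range of 13.7 to 14.8 RPKM, so their order is not resolved. CLEC12A, CLEC5A and CLEC7A followed at 2.99 ± 0.661, 1.35 ± 1.26 and 0.191 ± 0.164 RPKM, and the ranges of the first pair overlapped.

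**Figure D3:**
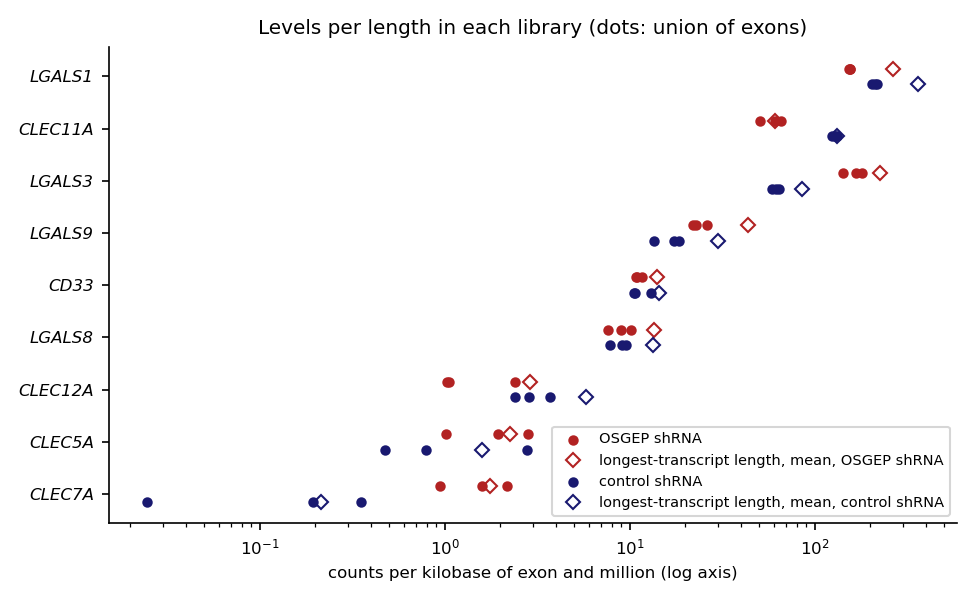
Level per length (horizontal log axis, CPM per kilobase of exon) of 9 genes in each OSGEP shRNA library (red dots) and each control shRNA library (dark blue dots), ordered by the control mean. Open diamonds are the group means with the longest transcript as length. LGALS3 lies between 142 and 181 in the knockdown and between 58.8 and 64.1 in the control, and CLEC4A, at 0 in 4 libraries, is left out of the log axis.

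Most C-type lectin genes of chromosome 12 sit in a cluster on its short arm. CLEC7A and its neighbour OLR1, which encodes the oxidised-lipoprotein receptor LOX-1, lie 28042 bases apart on the same strand. OLR1 stood at 31.7, 11.4 and 7.23 CPM in knockdown libraries 1, 2 and 3, against 1.24, 1.13 and 0.123 CPM in control libraries 1, 2 and 3. It was called higher (log2 fold change 4.29, SE 0.69, edgeR adjusted p = 0.000561), although limma-voom, at 4.33, fell short of the threshold (adjusted p = 0.0813). Like CLEC7A, OLR1 passed the filter on low counts through its knockdown libraries, with 12, 11 and 1 counts in control libraries 1, 2 and 3. On the other side of CLEC7A, CLEC1A had 10 counts in the knockdown libraries together and 1 in the controls and was not tested. The genes next to CLEC12A were near silent or not called, with CLEC2A at 0 in every library and CLEC1B at a log2 fold change of -1.59 (edgeR adjusted p = 0.541). Elsewhere in the cluster CLEC2D (-0.91) and CLEC2B (0.81) were the most abundant and were not called, at edgeR adjusted p-values of 0.275 and 0.301. Next to CD33, SIGLEC7 was not called (0.38, edgeR adjusted p = 0.800).

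**Figure D4:**
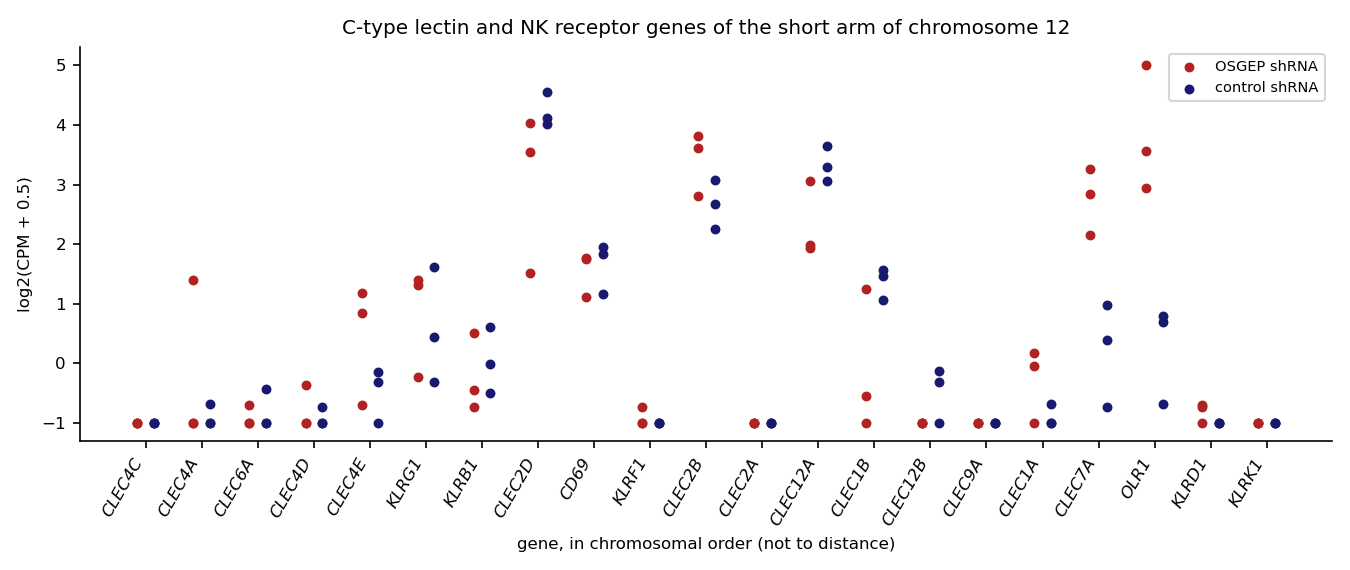
Expression as log2(CPM + 0.5) (vertical axis) of 21 C-type lectin and NK receptor genes in their order along the short arm of chromosome 12, in OSGEP shRNA libraries (red) and control shRNA libraries (dark blue), 1 dot per library. Dots at -1 have 0 counts. CLEC7A and OLR1, next to each other, have every knockdown dot above every control dot.

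Other members of the same families were read beside the 10.8% of all genes tested that were called. Of 13 further genes of the galectin list, LGALS3BP included, 3 were tested, 1 rose and 6 had no read in any library. The rise was LGALS3BP, which encodes a secreted glycoprotein that binds galectin-3 and is itself no galectin. It stood at 65.7 ± 13.5 CPM in the knockdown, against 20.1 ± 2.72 CPM in the control (SD, n = 3 each; log2 fold change 1.71, SE 0.21, edgeR adjusted p = 5.01e-05). Of 14 further Siglecs, 8 were tested and 0 were called by edgeR, at a median log2 fold change of 0.39. DESeq2, which tested more genes of low counts, called 1 of the 14, SIGLEC15 (DESeq2 adjusted p = 0.0285), which the edgeR fit of every gene with at least 1 read did not (adjusted p = 0.113). The most abundant were SIGLEC14 at 28.1 ± 4.85 CPM in the knockdown, against 20.2 ± 3.17 CPM in the control, and SIGLEC9 at 14.9 ± 4.48 CPM in the knockdown, against 10.3 ± 4.70 CPM in the control (SD, n = 3 each). SIGLEC14 is nearly identical to SIGLEC5 over part of its length, so its reads may be split.

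Of 57 further genes of the C-type lectin list, SELPLG included, 15 were tested, 1 rose and 2 fell. Of the 57, 19 had no read in any library. The median log2 fold change of the 15 was -0.91, beside 0.01 for all genes, with 12 of the 15 below 0. SELPLG, outside the naming rule, encodes a ligand of selectins, is itself no C-type lectin and was not called (-0.12, edgeR adjusted p = 0.803). FCER2, which encodes the low-affinity IgE receptor CD23, stood at 1.25, 1.02 and 2.02 CPM in knockdown libraries 1, 2 and 3, against 11.9, 7.47 and 9.72 CPM in control libraries 1, 2 and 3 (log2 fold change -2.76, SE 0.57, edgeR adjusted p = 0.00410). MRC2, which encodes the collagen receptor Endo180, stood at 24.7 ± 4.60 CPM in the knockdown, against 58.4 ± 2.23 CPM in the control (SD, n = 3 each; -1.24 with an SE of 0.20, edgeR adjusted p = 0.000544). The only rise was OLR1.

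Genes that carry the signals of these receptors were all expressed. Of 24 tested, 4 rose and 1 fell, at a median of 0.19. That was 20.8% called, beside 10.8% of all genes tested, and the count was 3 to 4 with 1 library left out. The Src-family kinase gene FGR rose by 1.12 on the log2 scale (SE 0.22), with 41.6 ± 3.72 CPM in the knockdown, against 19.2 ± 2.80 CPM in the control (SD, n = 3 each, edgeR adjusted p = 0.00319). FCER1G, the adaptor of several activating lectin receptors, rose by 0.88 (SE 0.10), with 794 ± 49.1 CPM in the knockdown, against 431 ± 23.3 CPM in the control (SD, n = 3 each, edgeR adjusted p = 1.34e-05). Outside the naming rule, PRKCD, a kinase gene, rose by 0.41 and lost its call in 5 of the 6 fits that left out 1 library. SYK and CARD9, which act below Dectin-1, were not called, at -0.23 and 0.09, nor were the CLEC5A adaptor gene TYROBP at 0.25 and the phosphatase genes PTPN6 and PTPN11 at 0.05 and -0.003.

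Partners of galectins gave 2 rises and 0 falls among 19 tested, at a median of 0.20, a share of 10.5% that was near the 10.8% of all genes tested. The count was 4 with library size alone or DESeq2, and 1 with the replicate block or without knockdown 3, control 1, control 2 or control 3. LRP1, a large endocytic receptor, stood at 23.4 ± 3.08 CPM in the knockdown, against 7.16 ± 1.497 CPM in the control (SD, n = 3 each; log2 fold change 1.71 with an SE of 0.31, edgeR adjusted p = 0.00151). The hyaluronan receptor gene CD44 rose by 0.47 (SE 0.14, edgeR adjusted p = 0.0427), a call kept only without knockdown 2 among the fits that left out 1 library (0.35 to 0.58).

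Among 33 tested genes that make or trim sialylated and galactose-bearing glycans, 5 rose and 2 fell, at a median of 0.07. That was 21.2% called, beside 10.8% of all genes tested, and the count was 3 to 6 with 1 library left out. GCNT1, which starts branched O-glycans that galectin-1 binds, stood at 13.9 ± 3.40 CPM in the knockdown, against 53.0 ± 11.5 CPM in the control (SD, n = 3 each; log2 fold change -1.93, SE 0.25, edgeR adjusted p = 7.09e-05). ST6GAL1, which caps N-glycans with sialic acid, stood at 16.6 ± 5.14 CPM in the knockdown, against 44.1 ± 3.81 CPM in the control (-1.41, SE 0.25, edgeR adjusted p = 0.00132). MGAT4A, a branching enzyme of N-glycans, rose by 1.51 (SE 0.22), with 97.8, 71.4 and 54.0 CPM in knockdown libraries 1, 2 and 3, against 24.2, 31.4 and 22.8 CPM in control libraries 1, 2 and 3 (edgeR adjusted p = 0.000282). Outside the naming rule, the other rises were the N-glycan enzyme genes MGAT1 (0.49), MGAT4B (0.56) and MGAT5 (0.64) and the lysosomal sialidase gene NEU1 (0.76). Of the 6 fits that left out 1 library, MGAT1 lost its call in 6, MGAT5 in 5, MGAT4B in 4 and NEU1 in 3.

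**Figure D5:**
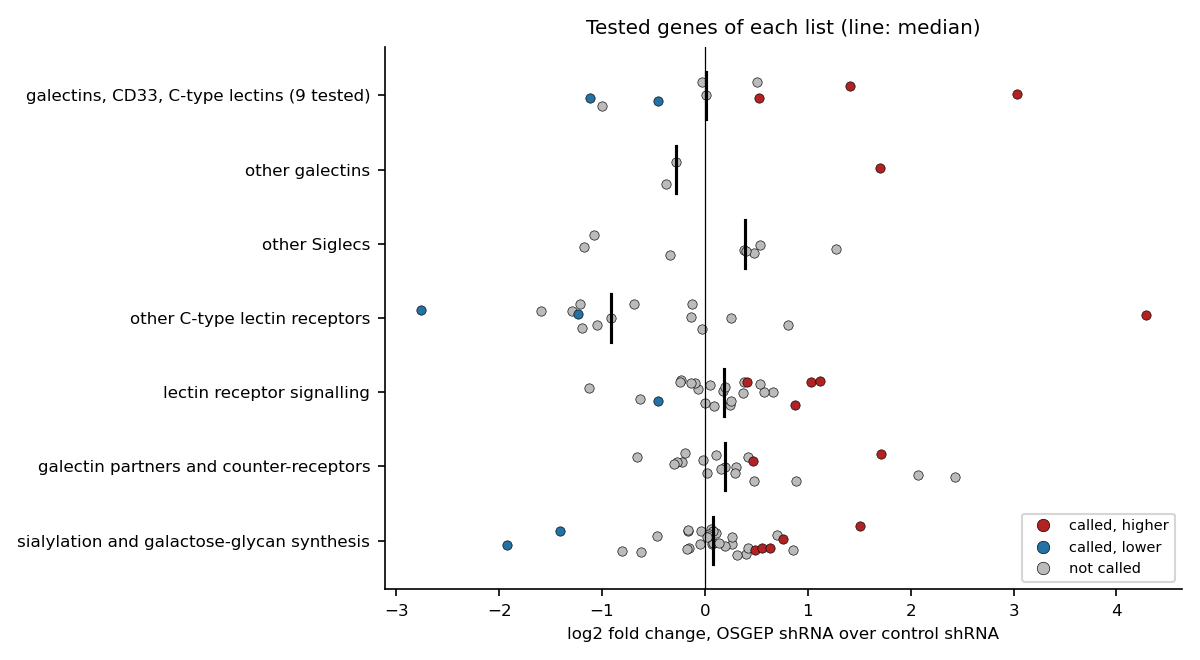
Log2 fold change of OSGEP shRNA over control shRNA (horizontal axis) for each tested gene of 7 lists, with called genes in red (higher) and blue (lower), genes not called in grey and the median of each list as a line. The scatter along the vertical axis within a list has no meaning. OLR1 lies farthest right at 4.29 and FCER2 farthest left at -2.76.

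A list of genes linked to CD33, among them genes of its splicing and transcription, was also read. Of 12 tested, 1 rose and 1 fell, at a median of -0.18. That was 16.7% called, beside 10.8% of all genes tested, and the count was 2 to 4 with 1 library left out. SRSF1, a splicing factor, stood at 198 ± 20.2 CPM in the knockdown, against 329 ± 26.8 CPM in the control (SD, n = 3 each; log2 fold change -0.73, SE 0.12, edgeR adjusted p = 0.000530). TREM2, a lipid-sensing receptor gene of macrophages and microglia and not a splicing or transcription factor gene, rose by 1.32 (SE 0.30, edgeR adjusted p = 0.00786). The myeloid transcription factor genes SPI1 (PU.1) and CEBPA were not called, at -0.14 and 0.28.

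Markers of other cells were read as a check on the cultures, beside the 10.8% of all genes tested that were called. Of 10 lymphoid and NK markers, 2 were tested and NKG7, a granule membrane gene, fell (log2 fold change -1.88, SE 0.17, edgeR adjusted p = 2.08e-06), with a summed level of the list of 26.0 to 30.7 CPM in the knockdown, against 88.1 to 101 CPM in the control. CD3D and CD3E had at most 5 counts in any library. Of 13 erythroid and megakaryocyte markers, 1 was tested and 0 were called. The most abundant were KLF1, at a log2 fold change of -1.07 (edgeR adjusted p = 0.535), and HBB, with at most 8 counts in any library, while HBG1, GATA1, PPBP and GP9 were at 0, and the summed level was 0.939 to 7.12 CPM in the knockdown, against 3.08 to 9.38 CPM in the control. Of 10 epithelial and mesenchymal markers, 5 were tested and CDH1 rose (1.59, SE 0.42, edgeR adjusted p = 0.0219, not called in 5 of the 6 fits that left out 1 library), and the summed level was 63.8 to 81.5 CPM in the knockdown, against 73.8 to 90.7 CPM in the control. The part of these markers in the results was not tested.

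The genes with the nearest pattern over the 6 libraries were found by Euclidean distance of centred log2(CPM + 0.5) among tested genes with a mean of at least 5 CPM. For LGALS3 they were IGF2R (distance 0.126), S100A11 (0.146) and PSAT1 (0.158), with log2 fold changes of 1.499, 1.48 and 1.45. For CLEC11A they were PNRC1 (0.155), FRY (0.164) and PLAC8 (0.194), with log2 fold changes of -1.02, -1.09 and -0.98. For CLEC7A the nearest lay farther off, namely SP140 (0.596), SLC47A1 (0.939) and SLC7A7 (0.997), with log2 fold changes of 2.93, 2.48 and 2.56. With 2 groups of 3 libraries these distances mostly reflect the difference between the groups.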

How the data were processed

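RNA of 6 HL-60 libraries, 3 with an OSGEP shRNA and 3 with a control shRNA, was read as deposited whole-number counts per Ensembl gene, 1 table per library, grouped and numbered by the sample titles. Per the submitters' processing notes, HISAT2 2.1.0, featureCounts 1.6.3 and the builds GRCh38 and GRCm38 were used, with no role given. Neither the annotation release, the strand setting nor the handling of multimapping reads is stated in those notes or labels. Symbols came from GENCODE release 29, which holds 58039 of the 58302 identifiers, and a table of current names, and lengths and positions from GENCODE.

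Counts were tested with edgeR 4.0.16 in R 4.3.3 (two-sided quasi-likelihood F test, group as the only term, TMM, filterByExpr with minimum count 10 and minimum total 15), with Benjamini-Hochberg adjustment over the 14018 genes tested. SEs were the absolute log2 fold change over the square root of F, and 95% intervals from the t quantile of that fit. Alternatives were RLE factors, library size alone, other filters, a replicate block, each library left out, DESeq2 1.42.0 and limma-voom (limma 3.58.1). The members and lists were chosen with earlier results of these data known. Named genes are the members, up to 3 called genes a list with a mean of at least 1 CPM and the largest change (or the 2 most abundant where none was called), adjacent family members and the 3 nearest patterns of the 3 called members with the largest change. HAVCR2, the genes said to be outside the rule and the uncalled signalling and transcription factor genes were named after their values were seen. On counts simulated for this comparison over 13360 genes, 66.7% of 63 genes changed 4-fold and 38.5% of 65 changed 2-fold were called. Of 63 genes changed 1.5-fold 12.7% were called. There were 3 false calls among 78. The data gave 1507 calls, so the simulation held far fewer changed genes and its cut-off in p was stricter. Its shares of genes recovered therefore do not carry over to these data. Chi-square per degree of freedom between libraries of a group lay between 10.5 and 25.6, so none were merged. Reads carry no molecular identifiers, so counting intervals cover counting error only. Some genes that the rule names are not reported here.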

Additional observations from a re-analysis of the deposited data

How the results depend on the processing

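LGALS3, CLEC11A and OSGEP kept their direction and their call under every alternative run. The number of genes called, 1507, was 1072 with the replicate block and ranged from 870 (without control 3) to 1624 (without knockdown 1) with 1 library left out. Of the 9 tested members 5 were called, 2 with the replicate block, 4 with limma-voom or a mean CPM of at least 5 (which removes CLEC7A from the test), 5 with DESeq2 and 2 to 5 with 1 library left out (2 without knockdown 3 or control 2, and 3 without knockdown 1, control 1 or control 3). The cause of these differences was not tested. The labels do not say that the numbers pair libraries, so they were not taken as pairs. Same-numbered libraries did not deviate together (correlations of -0.21, -0.10 and -0.04). Between differently numbered libraries of the groups the correlations ran from -0.10 to 0.20. With the block LGALS1 (-0.45), LGALS9 (0.54) and CLEC7A (3.19) lost their calls. The sign of LGALS8 turned with limma-voom (-0.0007) and over the leave-one-out fits (-0.0961 to 0.1247), and that of CD33 with library size alone (0.0419) and over the leave-one-out fits (-0.0901 to 0.072), neither being called in any. Library size alone gave 859 higher and 612 lower calls, against 727 and 780 with TMM. CLEC7A, CLEC12A, CLEC5A and CLEC4A had at most 126 counts in a library.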

Other observations

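Among genes left out of the main edgeR test for low counts, SIGLEC15 had 20, 12 and 7 counts in knockdown libraries 1, 2 and 3, against 0 counts in each control library. The ratio was 12.4 against a floor of 3 counts over the control group. Without that floor, the lower end of the exact 95% interval was 9.65, for counting error only. CLEC4E, which encodes the receptor Mincle, had 17, 14 and 1 counts in knockdown libraries 1, 2 and 3, against 3, 4 and 0 counts in control libraries 1, 2 and 3. Both were named after their values were seen. In the fit of every gene with at least 1 read neither was called (edgeR adjusted p = 0.113 for SIGLEC15 and 0.619 for CLEC4E), while DESeq2 called SIGLEC15 (adjusted p = 0.0285) and not CLEC4E (adjusted p = 0.545).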
